A study of Homo sapiens with 12 samples.

Results

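The genes described here are 10 markers of outer radial glia, the basal progenitors of the developing human cortex, and they were taken by symbol from a count table of 28207 genes. The members are HOPX, PTPRZ1, TNC, FAM107A, LIFR, MOXD1, IL6ST, ITGB5, ACSBG1 and STAT3, and all 10 passed the filter on low counts that left 17757 genes for testing. They were measured by bulk RNA sequencing of cerebral organoids, self-organised neural tissue grown from the human embryonic stem cell line H1. The groups were wildtype at day 10 (4 libraries), FEZ1-null (FEZ1-KO below) at day 10 (4 libraries), wildtype at day 60 (2 libraries) and FEZ1-KO at day 60 (2 libraries). No agent is named in the labels, and neither the number of knockout clones nor the edit is described in them. Whether the libraries within a group are separate cultures is not stated either, so each p-value reflects library-to-library spread that could be purely technical.

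Outer radial glia lie in the outer subventricular zone, keep a basal fibre without contact to the ventricle, and divide to supply upper-layer neurons and later astrocytes. They are known for a surface and matrix programme (tenascin-C, PTPRZ1, integrins) and for signalling from LIF-family cytokines through LIFR and the shared receptor gp130, encoded by IL6ST, to the transcription factor STAT3. Most of these genes are also active in astrocytes, early neuroepithelium or non-neural cells, so in a bulk library no single gene marks the cell type, and fewer cells of a type cannot be told apart from less RNA per cell.

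Total counts ranged from 15.7 M to 22.7 M per library. FEZ1, an adaptor of kinesin transport, was lower in knockout by a log2 fold change of -1.11 ± 0.11 (SE) at day 10 (edgeR quasi-likelihood adjusted p = 0.00153), while the day 60 value was -2.19 ± 0.16 (0.000335), and its libraries did not overlap between genotypes on either day. The radial glia factors PAX6 and SOX2 had means between 201 and 513 CPM in every group. Each library also carries a code whose meaning is not given: day 10 replicates 1 and 2 carry B16, replicate 3 B27, replicate 4 B29, and all day 60 libraries B16. The wildtype day 10 libraries of code B16 stood apart. Neural crest genes summed to 1001 and 1490 CPM in them against 57.6 to 95.4 CPM in the other 6 day 10 libraries, pan-neuronal genes to 2317 and 2714 CPM against 498 to 899, and mesenchymal genes to 1278 and 1589 CPM against 541 to 616. FEZ1-KO day 10 replicate 1 stood apart too. Its chi-square per gene against the other 3 knockout day 10 libraries was 86.1 to 144, beside 8.76 to 28.5 among those 3, and surface epithelium genes summed to 835 CPM in it against 277 to 569 CPM in the other 7 day 10 libraries. The main results of the members that rest on these libraries are given with and without them. The part of those other cell types in the results was not tested.

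The sequences just upstream of the start sites were searched for TTCNNNGAA, the gapped palindrome that STAT factors bind, because STAT3 and both receptor subunits are members. It reads the same on both strands. RefSeq (GRCh38.p14) gave 17 starts for the 10 members, and 3 of them held the motif within 250 bases upstream, against 6.57% of 35116 starts of all genes. The matches fell in 2 of the 3 starts of LIFR and in the start of ACSBG1, which held 2. Printed 5′ to 3′ on the gene's strand, with the motif in capitals, are these starts and both starts of HOPX, the member with the fewest counts at day 10. A match is a description of these letters and not evidence of binding.

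HOPX, start 1, chr4:56656518-56656767, minus strand: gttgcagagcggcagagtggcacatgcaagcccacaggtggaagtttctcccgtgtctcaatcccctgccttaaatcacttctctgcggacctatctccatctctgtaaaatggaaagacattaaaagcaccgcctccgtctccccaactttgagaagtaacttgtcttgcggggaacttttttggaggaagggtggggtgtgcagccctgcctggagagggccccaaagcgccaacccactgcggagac

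HOPX, start 2, chr4:56681297-56681546, minus strand: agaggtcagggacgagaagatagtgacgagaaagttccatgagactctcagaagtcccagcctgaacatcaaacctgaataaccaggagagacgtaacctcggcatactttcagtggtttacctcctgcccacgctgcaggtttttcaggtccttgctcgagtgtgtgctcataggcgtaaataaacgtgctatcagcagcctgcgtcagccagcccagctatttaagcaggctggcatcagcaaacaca

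LIFR, start 2, chr5:38557468-38557717, minus strand: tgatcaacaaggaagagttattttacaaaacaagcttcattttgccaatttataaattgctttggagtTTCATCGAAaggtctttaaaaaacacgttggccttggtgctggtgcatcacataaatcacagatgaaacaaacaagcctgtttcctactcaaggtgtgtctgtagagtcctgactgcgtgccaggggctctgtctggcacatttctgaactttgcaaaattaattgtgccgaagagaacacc

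LIFR, start 3, chr5:38595406-38595655, minus strand: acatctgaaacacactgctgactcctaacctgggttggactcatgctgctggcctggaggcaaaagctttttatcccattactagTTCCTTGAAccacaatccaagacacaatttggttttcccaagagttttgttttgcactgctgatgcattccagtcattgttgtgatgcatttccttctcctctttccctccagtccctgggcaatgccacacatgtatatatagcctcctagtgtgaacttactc

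ACSBG1, start 1, chr15:78234566-78234815, minus strand: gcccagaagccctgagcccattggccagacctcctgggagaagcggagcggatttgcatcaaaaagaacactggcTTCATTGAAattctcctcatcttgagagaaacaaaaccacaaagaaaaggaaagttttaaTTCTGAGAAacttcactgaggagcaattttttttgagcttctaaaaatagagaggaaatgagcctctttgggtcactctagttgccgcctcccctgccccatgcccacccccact

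HOPX and LIFR were the members that rose between day 10 and day 60 in both genotypes, and ITGB5 and STAT3 those that fell in both. MOXD1, ACSBG1 and IL6ST also rose in knockout. Of the 10 members, 4 were called at an adjusted p below 0.05 in wildtype (2 higher, 2 lower), where 55.4% of all genes tested were called, 29.3% higher and 26.1% lower. In knockout 7 were called (5 higher, 2 lower), where 57.6% of all genes were called, 30.7% higher and 26.9% lower. The libraries of the 2 days did not overlap for 6 members in wildtype (4 higher, 2 lower; 72.5% of all genes tested, 37.2% higher and 35.3% lower) and for 9 in knockout (7 higher, 2 lower; 68.6%, 37% higher and 31.6% lower). The median log2 fold change of the members was 0.51 in wildtype and 0.80 in knockout, beside -0.01 and 0.03 over all genes tested. These shares are near the background, so the counts by themselves say little about the members, and each gene is described by its own values. For the difference of the day effect between genotypes edgeR called 0 members and 0% of all genes, with 2 members and 1269 genes at an unadjusted p below 0.05, and DESeq2 called 1 member and 78 genes. No member was called by edgeR for genotype within a day.

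**Figure D1:**
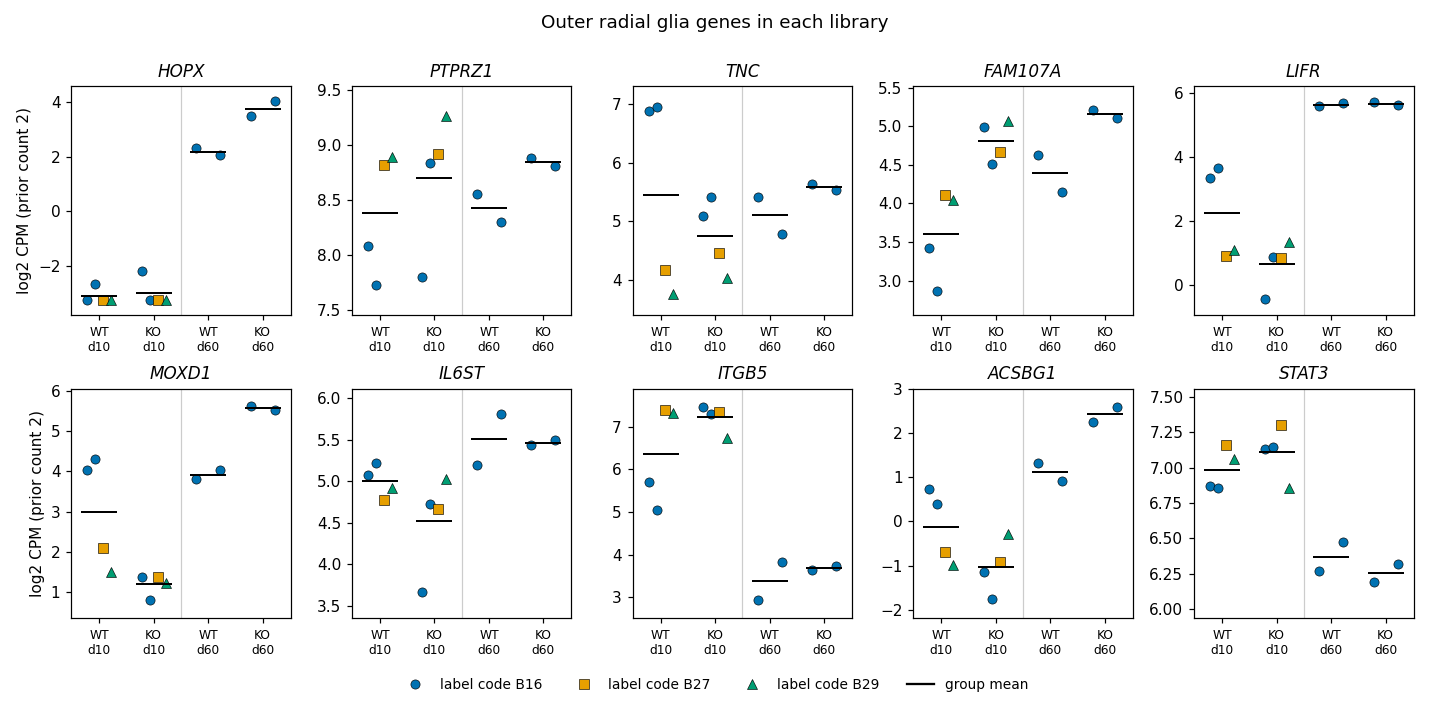
Expression of each member in each of the 12 libraries, as log2 CPM with a prior count of 2; the horizontal axis gives genotype (WT wildtype, KO FEZ1-KO) and day, points are libraries marked by label code, and bars are group means. HOPX lies near the bottom of its scale at day 10 and rises in both genotypes. The B16 wildtype day 10 libraries lie above the other day 10 libraries for TNC, LIFR, MOXD1 and ACSBG1. They lie below them for FAM107A and ITGB5.

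HOPX encodes a small homeodomain protein that does not bind DNA by itself and is the most widely used marker of outer radial glia in human cortex. At day 10 it had 1 count over the 4 wildtype libraries and 2 counts over the 4 knockout libraries, 0.0521 CPM in wildtype replicate 2 and 0.116 CPM in knockout replicate 1, and no count in the other 6. A count of 0 allows up to 0.134 to 0.193 CPM in these libraries (3 counts), so its level before onset lay at the limit of detection. At day 60 it stood at 4.90 and 4.04 CPM in wildtype (94 and 80 counts) and at 11.1 and 16.2 CPM in knockout (197 and 319 counts). Every day 60 library was above every day 10 library, and both knockout libraries were above both wildtype libraries at day 60.

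Per library size, the ratio of day 60 to day 10 was 350.6 in wildtype (174 against 1 count; exact 95% interval 62.1 to 13926, covering counting error only) and 487.1 in knockout (516 against 2 counts; 134 to 4033). The edgeR adjusted p was 5.86e-06 in wildtype and 1.51e-06 in knockout; HOPX was called in both genotypes under all 20 alternatives. With 3 counts in all at day 10, the difference of the onset between genotypes was 0.76 ± 3.03 on the log2 scale, an interval too wide to compare the genotypes. At day 60 knockout stood 1.61 ± 0.52 above wildtype on the log2 scale, or 3.06-fold (95% interval of the log2 value 0.60 to 2.63; unadjusted p = 0.00935, edgeR adjusted p = 0.525), which did not pass the test over all genes. DESeq2 put the same difference at 1.61 with an adjusted p of 0.0488, and edgeR without the 4 B16 day 10 libraries at 1.61 with 0.0300. Across all 20 alternatives the value ranged from 1.33 to 1.86 and the adjusted p from 0.0300 to 1.

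The 5 genes whose log2 CPM profile over the 12 libraries, each centred on its own mean, lay nearest to that of HOPX were HOXB-AS3 (root mean square difference 0.27), SPARCL1 (0.33), LINC01159 (0.39), MT3 (0.42) and HOXA4 (0.44). SPARCL1, a secreted glycoprotein of astrocytes and radial glia, had 8.38 ± 4.43 CPM (mean ± SD) in wildtype and 18.5 ± 8.28 CPM in knockout at day 60. MT3, a brain metallothionein, had 6.83 CPM in wildtype and 8.36 CPM in knockout. HOXA4, a patterning gene of the hindbrain and spinal cord, was at 0 in all 8 day 10 libraries and reached 2.28 CPM in wildtype and 10.8 CPM in knockout. These profiles were alike mainly in the step from about 0 at day 10 to several CPM at day 60. Among the members the closest profile to HOPX was that of LIFR, at 1.50.

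LIFR is the subunit that binds LIF. Its levels at day 10 were 10.1, 12.6, 1.80 and 2.05 CPM in wildtype replicates 1 to 4 and 0.640, 1.74, 1.70 and 2.44 CPM in knockout. At day 60 they were 48.6 and 51.0 CPM in wildtype and 52.4 and 49.4 CPM in knockout. The day 60 libraries of both genotypes lay within a narrow range well above all day 10 libraries, and the high day 10 values were the B16 wildtype libraries, the lowest that of knockout replicate 1. LIFR rose 7.49-fold in wildtype (log2 2.90 ± 0.64, edgeR adjusted p = 0.00262) and 31.2-fold in knockout (4.96 ± 0.70, adjusted p = 0.000128), and the call held under all 20 alternatives in both genotypes. The wildtype rise was 2.13 on the log2 scale within code B16 and 4.66 without the B16 wildtype day 10 libraries. The knockout rise was 4.70 without knockout day 10 replicate 1 (adjusted p = 0.000694). At day 60 the genotypes differed by 0.03 on the log2 scale, with a 95% interval from -1.44 to 1.50. At day 10 knockout was lower by a log2 fold change of -2.03 ± 0.61 (unadjusted p = 0.00670, edgeR adjusted p = 0.229). DESeq2 called this difference (-2.0, adjusted p = 0.0220). The authors' deposited table of FEZ1-null against wildtype, which names no day, gives -2.0 with an adjusted p of 0.0182. The differences of log2 CPM were -3.27 within B16, -0.08 in B27 and 0.24 in B29, and edgeR without the 4 B16 day 10 libraries gave 0.11 (adjusted p = 0.972).

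IL6ST encodes gp130, the signalling subunit shared by LIF, IL-6 and related cytokines. It stood at 33.5, 37.3, 27.2 and 30.2 CPM in wildtype at day 10 and at 12.6, 26.4, 25.2 and 32.6 CPM in knockout. The day 60 libraries had 36.7 and 55.9 CPM in wildtype and 43.1 and 45.1 CPM in knockout. Knockout day 60 was above every knockout day 10 library, whereas the wildtype days overlapped, and knockout day 10 replicate 1 was the lowest of all 12 libraries. The rise in knockout was 1.82-fold (log2 0.87 ± 0.29, edgeR adjusted p = 0.0251), and it was not called without either knockout day 60 library (0.89 without replicate 1, adjusted p = 0.0901; 0.83 without replicate 2, 0.112). Without knockout day 10 replicate 1 it was 0.65 (adjusted p = 0.0121). The wildtype value was 0.53 ± 0.30 (adjusted p = 0.149), which was called without that same knockout library (0.53, adjusted p = 0.0240).

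STAT3, the transcription factor downstream of gp130, fell while LIFR rose. It had 117, 116, 143 and 133 CPM in wildtype and 140, 141, 158 and 116 CPM in knockout at day 10, and 76.9 and 88.6 CPM in wildtype and 73.1 and 79.6 CPM in knockout at day 60. All 4 day 60 libraries were below all 8 day 10 libraries. STAT3 fell by 0.62 ± 0.16 on the log2 scale in wildtype (edgeR adjusted p = 0.00552) and by 0.86 ± 0.16 in knockout (adjusted p = 0.000709). Without wildtype day 60 replicate 1 the wildtype fall was not called (log2 -0.54, adjusted p = 0.0651).

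Of 12 other gp130 ligands and receptors, 10 were tested. In wildtype 3 rose and 0 fell, and in knockout 2 rose and 2 fell, with median log2 fold changes of 0.84 and 0.29. For this and the lists below, 29.3% of all genes tested were called higher and 26.1% lower in wildtype between days. In knockout 30.7% were called higher and 26.9% lower. IL11RA, the receptor of IL-11, rose from 27 ± 6.85 to 61.8 ± 1.89 CPM in wildtype (edgeR adjusted p = 0.00433) and from 22.8 ± 8.60 to 52.6 ± 0.916 CPM in knockout (adjusted p = 0.00383). Of 16 genes of JAK/STAT signalling and its targets, 6 rose and 2 fell in wildtype, and 5 rose and 5 fell in knockout. The kinase JAK1, which associates with gp130, rose from 13.4 ± 2.27 to 78.6 ± 3.22 CPM in wildtype (adjusted p = 1.2e-05) and from 9.28 ± 3.22 to 82.7 ± 0.272 CPM in knockout (adjusted p = 2.91e-06). MYC, a growth regulator and STAT3 target, rose by 3.14 ± 0.41 and 2.83 ± 0.42 on the log2 scale (adjusted p = 8.09e-05 and 0.000163). BCL3 rose in wildtype by 2.75 ± 0.54 (adjusted p = 0.0012), and STAT5A fell by 2.73 ± 0.44 in knockout (adjusted p = 0.000317). Genes named for 1 genotype only, here and below, had the largest called changes of their list in it. They are not thereby particular to it, and edgeR called 0 genes for a difference of the day effect.

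**Figure D2:**
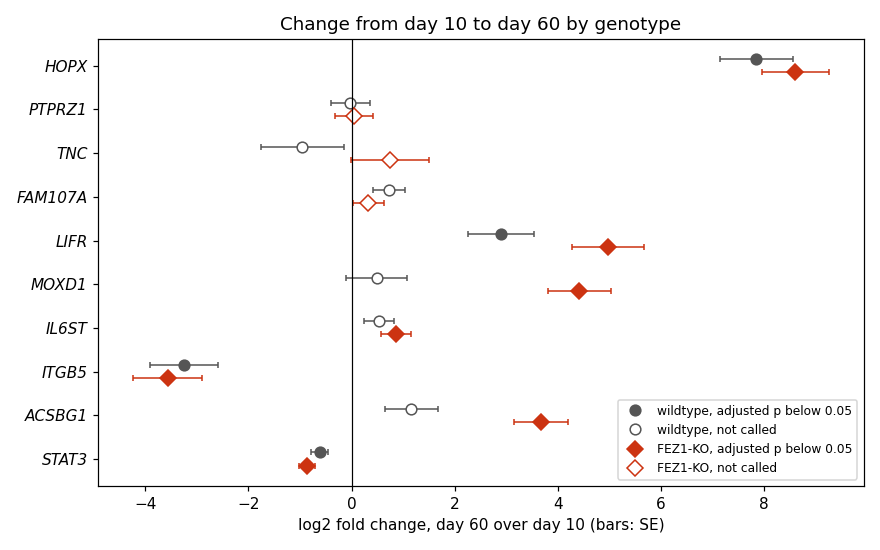
Log2 fold change of each member from day 10 to day 60 in wildtype (circles) and FEZ1-KO (diamonds), from the edgeR fit of all 12 libraries; bars are SE and filled symbols have an adjusted p below 0.05. HOPX (7.85 and 8.61) lies farthest to the right, ITGB5 (-3.25 and -3.56) farthest to the left, and MOXD1, IL6ST and ACSBG1 are filled in knockout only, while no difference between genotypes was called.

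PTPRZ1, a receptor phosphatase and chondroitin sulphate proteoglycan of radial glia, was already the most abundant member per exon length at day 10. It stood at 272, 212, 452 and 475 CPM in wildtype and 224, 457, 485 and 615 CPM in knockout at day 10, and at 376 and 317 CPM in wildtype and 473 and 448 CPM in knockout at day 60. The days overlapped in both genotypes, with log2 fold changes of -0.03 ± 0.38 in wildtype and 0.05 ± 0.37 in knockout (95% intervals -0.76 to 0.71 and -0.69 to 0.78; edgeR adjusted p = 0.958 and 0.920). PTPRZ1 was abundant at day 10, when HOPX had 3 counts over 8 libraries. The wildtype value was called in 1 alternative, -0.42 without the 4 B16 day 10 libraries (adjusted p = 0.00708), and stood at 0.51 within code B16 (adjusted p = 0.186). The lowest knockout day 10 value was that of replicate 1, without which the knockout value was -0.17 (adjusted p = 0.649).

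Of the 12 listed ligands and partners of PTPRZ1, 7 rose and 2 fell in wildtype, where 55.4% of all genes were called. In knockout 10 rose and 2 fell, where 57.6% of all genes were called. The medians were 1.33 and 2.16, beside -0.01 and 0.03 over all genes tested. CNTN1, a neuronal adhesion molecule that binds PTPRZ1, rose from 7.49 ± 7.63 to 143 ± 30.1 CPM in wildtype (edgeR adjusted p = 0.00124) and from 1.16 ± 0.514 to 122 ± 14.6 CPM in knockout (adjusted p = 0.000136). NCAM1 rose from 67.8 ± 54.3 to 723 ± 118 CPM in wildtype (adjusted p = 0.000746) and from 22.4 ± 7.50 to 706 ± 1.75 CPM in knockout (adjusted p = 7.69e-05). The matrix protein TNR, a relative of TNC, rose in wildtype from 0.132 ± 0.152 to 27.6 ± 5.23 CPM (adjusted p = 2e-06). All 12 listed genes were called in knockout, TNR included, which is named for wildtype by the size of its change there. Several partners are neuronal genes, and the pan-neuronal list summed to between 498 and 2714 CPM at day 10 and between 4121 and 5359 CPM at day 60. Its part in these values was not tested.

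TNC encodes tenascin-C, a glycoprotein of the progenitor niche matrix. Its day 10 levels were 118, 123, 18.0 and 13.5 CPM in wildtype and 34.1, 42.4, 21.9 and 16.3 CPM in knockout. At day 60 they were 42.8 and 27.5 CPM in wildtype and 49.7 and 46.4 CPM in knockout. The B16 wildtype libraries were the highest of all 12 and the other wildtype day 10 libraries were among the lowest, so the direction of the wildtype change depended on which were used. Over all libraries it was -0.95 ± 0.81 on the log2 scale (edgeR adjusted p = 0.337). Within B16 it was -1.78 (adjusted p = 0.000401), and without the B16 wildtype day 10 libraries 1.13 (adjusted p = 0.0386). In knockout both day 60 libraries were above all 4 day 10 libraries, with a fitted difference of group means of 0.74 ± 0.76 on the log2 scale (adjusted p = 0.422). That difference was -0.22 with the label code as a block (adjusted p = 0.721), and of the 20 alternatives it was called only without the 4 B16 day 10 libraries (1.32, adjusted p = 0.00159).

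**Figure D3:**
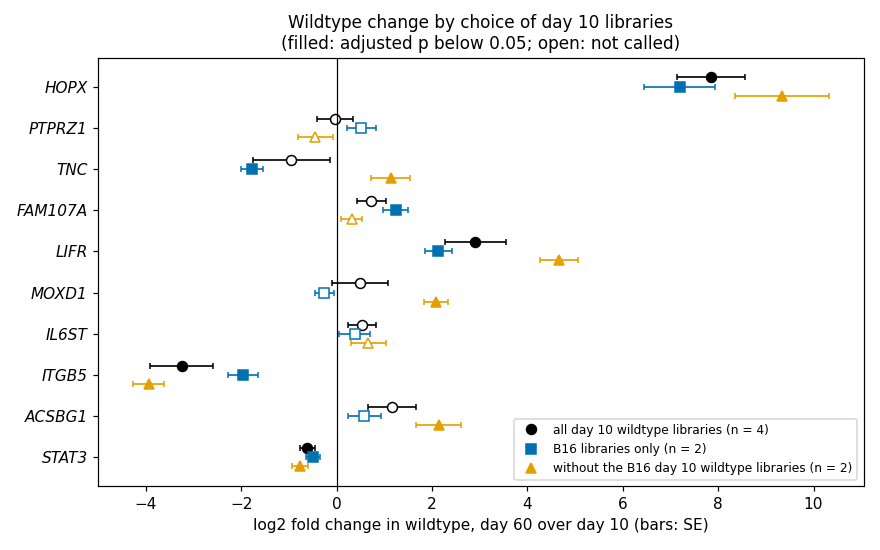
Log2 fold change of each member from day 10 to day 60 in wildtype, with all day 10 libraries (circles), within code B16 (squares) and without the B16 wildtype day 10 libraries (triangles); bars are SE and filled symbols have an adjusted p below 0.05. TNC changes direction, from -1.78 within B16 to 1.13 without those libraries, as do MOXD1 (-0.26 to 2.09) and PTPRZ1 (0.51 to -0.45). TNC is called in both settings, MOXD1 only without those libraries, and PTPRZ1 in neither. HOPX, LIFR, ITGB5 and STAT3 keep their direction.

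ITGB5, the beta subunit that pairs with ITGAV to bind vitronectin, had 52.0, 32.9, 168 and 160.1 CPM in wildtype and 176, 157, 163 and 107 CPM in knockout at day 10. At day 60 it had 7.61 and 14.1 CPM in wildtype and 12.3 and 13.2 CPM in knockout. Every day 60 library was below every day 10 library, the B16 wildtype ones included. The decrease was 9.49-fold in wildtype (log2 -3.25 ± 0.66, edgeR adjusted p = 0.00159) and 11.8-fold in knockout (-3.56 ± 0.67, adjusted p = 0.00091), and it was called under all 20 alternatives in both. The wildtype value was -1.97 within B16 and -3.94 without the B16 wildtype day 10 libraries.

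Of 16 other matrix and integrin genes, 6 rose and 5 fell in each genotype, with medians of -0.08 in wildtype and 0.68 in knockout. BCAN, the brain proteoglycan brevican, rose from 2.36 ± 1.45 to 46.7 ± 22.3 CPM in wildtype (edgeR adjusted p = 1.94e-05) and from 1.47 ± 0.404 to 66.9 ± 6.57 CPM in knockout (adjusted p = 4.93e-06). ITGB8, a further partner of ITGAV, rose by 2.85 ± 0.20 and 3.30 ± 0.20 on the log2 scale (adjusted p = 8.73e-07 and 3.47e-07), opposite to ITGB5. LAMA1, a laminin chain of the early neuroepithelial basement membrane, fell from 225 ± 26.3 to 34.6 ± 2.33 CPM in wildtype (adjusted p = 3.32e-06). SPP1 (osteopontin) rose in knockout from 0.0841 ± 0.115 to 13.5 ± 1.51 CPM (adjusted p = 8.29e-06).

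FAM107A, an actin-associated stress-response protein and marker of outer radial glia, was the member whose genotypes separated in the same direction on both days. At day 10 it had 10.6, 7.19, 17.1 and 16.3 CPM in wildtype and 31.7, 22.7, 25.2 and 33.6 CPM in knockout. At day 60 it had 24.7 and 17.7 CPM in wildtype and 36.8 and 34.2 CPM in knockout. Knockout libraries were above all wildtype libraries on each day, and the difference of log2 CPM was positive within each code at day 10 (1.60 in B16, 0.56 in B27, 1.04 in B29). The log2 fold change at day 10 was 1.14 ± 0.26 (95% interval 0.64 to 1.65; unadjusted p = 0.000869, edgeR adjusted p = 0.221), and the day 60 value was 0.74 ± 0.36 (adjusted p = 0.949), neither of which passed the test. DESeq2 called the day 10 difference (1.16, adjusted p = 0.00518). The authors' deposited table of FEZ1-null against wildtype, which names no day, gives 1.16 with an adjusted p of 0.0121. Over days, the log2 fold change of FAM107A was 0.72 ± 0.30 in wildtype (edgeR adjusted p = 0.0614) and 0.33 ± 0.30 in knockout (adjusted p = 0.378). The wildtype value was called within B16 (1.24, adjusted p = 0.00503) and with the label code as a block (1.02, adjusted p = 0.0152), and was 0.31 without the B16 wildtype day 10 libraries (adjusted p = 0.265). Among the members the closest pair of profiles over the 12 libraries was PTPRZ1 and FAM107A, at a root mean square difference of 0.57.

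MOXD1 encodes a monooxygenase-like protein of the secretory pathway, and had the smallest p among the members for a difference of the day effect between genotypes. Its day 10 levels were 16.4, 19.5, 4.16 and 2.74 CPM in wildtype and 2.50, 1.64, 2.49 and 2.25 CPM in knockout. At day 60 they were 13.9 and 16.2 CPM in wildtype and 48.9 and 45.8 CPM in knockout. Knockout was below wildtype in all day 10 libraries and above it in all day 60 libraries. MOXD1 rose 21.4-fold in knockout (log2 4.42 ± 0.62, edgeR adjusted p = 0.000111), with a wildtype value of 0.49 ± 0.59 (adjusted p = 0.505). The difference of these effects was 3.93 ± 0.90 (95% interval 2.17 to 5.69; unadjusted p = 0.00101, edgeR adjusted p = 0.520), which did not pass over all genes. DESeq2 called it at 3.89 (adjusted p = 0.00612). Without the B16 wildtype day 10 libraries it was 2.30 (edgeR adjusted p = 0.113), and without all 4 B16 day 10 libraries 2.19 (adjusted p = 0.0411). Within B16, the only code present on both days, it was 4.78 (adjusted p = 0.000160).

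That difference combines a lower knockout level at day 10 and a higher one at day 60. The day 10 value was a log2 fold change of -2.28 ± 0.54 (edgeR adjusted p = 0.225), and DESeq2 gave -2.24 (adjusted p = 0.00215). The authors' deposited table, which names no day, gives -2.24 with an adjusted p of 0.0101. However, the day 10 differences of log2 CPM were -3.08 in B16, -0.72 in B27 and -0.27 in B29. At day 60 knockout was 3.15-fold higher (log2 1.65 ± 0.71, adjusted p = 0.833), and this value stayed between 1.56 and 1.77 across the 20 alternatives, of which 2 called it. Without the B16 wildtype day 10 libraries the wildtype rise itself was 2.09 (adjusted p = 7.28e-05), whereas the wildtype value within B16 was -0.26 (adjusted p = 0.313).

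ACSBG1, an acyl-CoA synthetase of brain lipid metabolism found in astrocytes and radial glia, was the least abundant member per exon length at day 60. It had 1.56, 1.20, 0.514 and 0.399 CPM in wildtype and 0.349, 0.188, 0.425 and 0.707 CPM in knockout at day 10, and 2.40 and 1.77 CPM in wildtype and 4.64 and 5.89 CPM in knockout at day 60. Every day 60 library was above every day 10 library of its genotype. In knockout the gene rose 12.7-fold (log2 3.67 ± 0.53, edgeR adjusted p = 0.000136), and in wildtype the value was 1.16 ± 0.51 (adjusted p = 0.0733), 2.14 without the B16 wildtype day 10 libraries (adjusted p = 0.00364) and 0.58 within B16 (adjusted p = 0.191). The difference of the day effects was 2.51 ± 0.76 (unadjusted p = 0.00682, adjusted p = 0.526), and 3.71 within B16 (adjusted p = 0.00596). Without the B16 wildtype day 10 libraries it was 1.51 (edgeR adjusted p = 0.762), and without all 4 B16 day 10 libraries 1.04 (adjusted p = 0.520). Of the 20 alternatives, 1 called it, the fit within B16. Exons of ACSBG1 share 2608 bases with the oppositely transcribed IDH3A in GENCODE 29 (GRCh38), and those of IL6ST, LIFR and TNC share 797, 629 and 129 bases with opposite-strand genes, so that reads there cannot be assigned if counting ignored strand, a setting the labels do not record. ACSBG1 and MOXD1 formed the second closest pair of member profiles, at 0.59.

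At day 10, before onset, 0 of the 10 members passed the edgeR test between genotypes, where 0.124% of all genes were called, 0.0394% higher and 0.0845% lower. The groups of 4 libraries separated without overlap for FAM107A (higher in knockout) and MOXD1 (lower), that is for 2 of 10 members beside 5% of all genes, 2.33% higher and 2.67% lower. By unadjusted p below 0.05 there were 4 members, FAM107A, LIFR, MOXD1 and ACSBG1, and DESeq2 called 3, where it called 2.68% of the genes it tested. The members lower in knockout were those high in the B16 wildtype libraries. FAM107A and ITGB5, higher in knockout, had their lowest day 10 levels in those libraries. Without them the day 10 value was 0.77 for FAM107A (edgeR adjusted p = 0.633) and -0.11 for ITGB5 (adjusted p = 0.939). Within B16 alone edgeR called 6 members (2 higher, 4 lower), where 11.5% of all genes were called. The median over members was -0.35 within B16, -0.02 in B27 and 0.17 in B29, as differences of log2 CPM, beside -0.02, -0.01 and -0.01 over all genes tested.

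**Figure D4:**
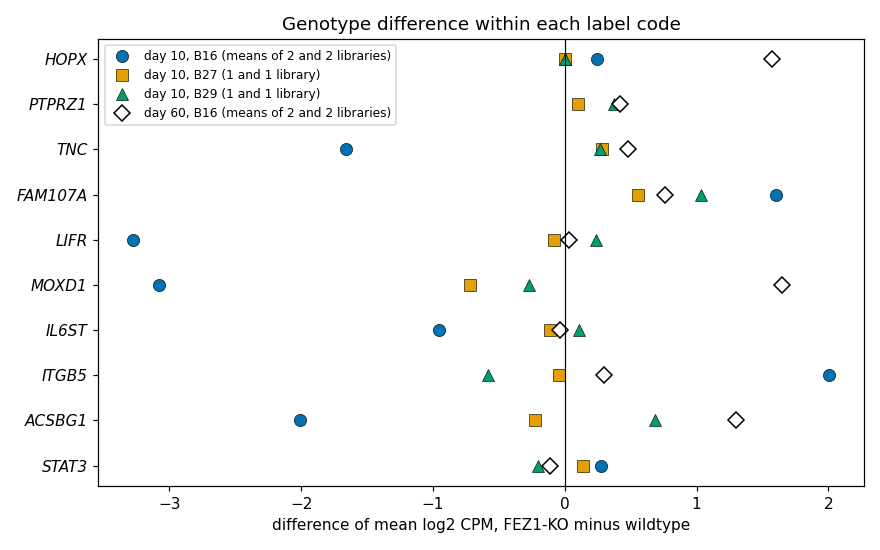
Difference of mean log2 CPM between FEZ1-KO and wildtype for each member, within each label code at day 10 (filled symbols) and at day 60 (open diamonds); points right of 0 are higher in knockout. FAM107A lies right of 0 in every comparison, whereas LIFR is at -3.27 in B16 but at -0.08 in B27 and 0.24 in B29.

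At day 60, 8 of the 10 members had a higher value in knockout and 2 a lower one, with a median log2 fold change of 0.43 beside -0.01 over all genes tested. None was called by edgeR (0.0225% of all genes were called), and 3 had an unadjusted p below 0.05 (HOPX, MOXD1 and ACSBG1). DESeq2 called HOPX, where it called 0.776% of the genes it tested. Both knockout libraries lay above both wildtype libraries for 6 members, HOPX, PTPRZ1, TNC, FAM107A, MOXD1 and ACSBG1, while 24.1% of all genes tested had this order and 46.5% did not overlap in either direction. PTPRZ1 differed by 0.41 ± 0.43, TNC by 0.45 ± 0.90 and ACSBG1 by 1.34 ± 0.58 (edgeR adjusted p = 1, 1 and 0.858). IL6ST, ITGB5 and STAT3 overlapped between genotypes, with log2 fold changes of -0.07, 0.23 and -0.12. All day 60 libraries carry B16, so no value from another code can be set beside these.

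Other lists moved with the same day 60 libraries. The wildtype libraries differed more from each other (chi-square per gene 20.3) than the knockout libraries did (3.97). Surface epithelium genes summed to 299 CPM in wildtype replicate 2 and to 28.9 to 30.3 CPM in the other day 60 libraries. Each wildtype day 60 mean rests on 2 libraries, of which this is 1. Mesenchymal genes summed to 2139 and 4426 CPM in wildtype and to 737 and 934 CPM in knockout, with 12 of 12 at a lower value in knockout and 0 called, and none of the 12 was at 0 in any day 60 library. COL3A1, a fibrillar collagen, averaged 1213 ± 819 CPM in wildtype but 212 ± 25.7 CPM in knockout (log2 -2.51 ± 0.53, edgeR adjusted p = 0.307). The pan radial glia list had 14 of 15 genes at a higher value in knockout and 0 called, among them PAX6 (0.56 ± 0.17, adjusted p = 0.50) and NES (0.61 ± 0.20, adjusted p = 0.532). The cell cycle list had 12 of 12 at a higher value and 0 called. List medians were -1.79 for mesenchymal, 0.33 for pan radial glia and 0.48 for cell cycle genes, beside -0.01 over all genes tested. The part of these lists in the higher knockout values of the 6 members was not tested.

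Ordered by CPM per kilobase of exon, the wildtype day 60 level was highest for PTPRZ1 (34.9 ± 4.23, SD), followed by STAT3 (9.39 ± 0.942), IL6ST (4.98 ± 1.46), LIFR (4.20 ± 0.143), FAM107A (3.98 ± 0.935), TNC (3.65 ± 1.12), MOXD1 (2.84 ± 0.319), ITGB5 (1.69 ± 0.715), HOPX (0.576 ± 0.0785) and ACSBG1 (0.253 ± 0.0542). From IL6ST to MOXD1 neighbouring levels differed by less than the larger SD of each pair. The SD of LIFR and that of MOXD1 were each smaller than the distance of that gene to either neighbour. In knockout at day 60 MOXD1 was in the second place, at 8.95 ± 0.416 CPM per kilobase, next to STAT3 (8.66 ± 0.518), and HOPX stood at 1.76 ± 0.462. Exon lengths are from GENCODE 29, which may differ from the annotation used for counting. Each is the union of all annotated exons of the gene. Where the transcripts expressed are shorter than that union, the level is understated, so the order is approximate.

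Related cell types changed over the same days, in which 55.4% of all genes were called in wildtype and 57.6% in knockout. Of 15 pan radial glia genes, 4 rose and 6 fell in wildtype and 6 rose and 6 fell in knockout, and the glutamate transporter SLC1A3 (14.8 ± 1.89 to 125 ± 27.9 CPM in wildtype, edgeR adjusted p = 3.33e-06), the fatty acid binding protein FABP7 (50.9 ± 8.10 to 212 ± 60.0 CPM, 7.25e-05) and SOX9 (50.1 ± 24.3 to 176 ± 28.5 CPM, 0.00109) rose in both. Of 14 astrocyte genes, 7 rose in each genotype, with 1 falling in wildtype and 2 in knockout; GFAP rose from 0.398 ± 0.213 to 18.2 ± 9.08 CPM in wildtype (adjusted p = 1.69e-06) and from 0.513 ± 0.168 to 25.7 ± 4.37 CPM in knockout (adjusted p = 1.37e-06). Of 8 ventricular and truncated radial glia genes, 6 rose in wildtype and 5 in knockout and none fell, among them PDGFD, which went from 1.94 ± 0.291 to 26.7 ± 2.53 CPM in wildtype (adjusted p = 6.74e-07). Cell cycle genes fell, 12 of 12 in wildtype and 10 of 12 in knockout, and all 7 pluripotency genes tested fell in both. GJA1, the astrocyte gap junction protein connexin 43, fell from 575 ± 183 to 58.8 ± 19.6 CPM in wildtype (adjusted p = 2.23e-05) and from 825 ± 163 to 42.9 ± 7.60 CPM in knockout (adjusted p = 5.44e-06). The summed level of the astrocyte list was 796 to 1165 CPM at day 10 and 620.0 to 749 CPM at day 60 in wildtype, and 1357 to 1491 CPM and 642 to 696 CPM in knockout. For the pan radial glia list it was 3759 to 4101 CPM at day 10 and 3171 to 3371 CPM at day 60 in wildtype. In knockout it was 4084 to 4906 CPM and 3777 to 4002 CPM. The median log2 fold change of that list was -0.25 in wildtype and -0.32 in knockout, so the radial glia genes named above as rising do not stand for it. The contribution of each cell type to the members' levels was not measured.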

How the data were processed

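Counts per gene and library were used as the authors deposited them; the submitters' processing notes name the hg19 build and, with no version or strand setting, STAR, HTSeq and DESeq2. The log2 fold changes and standard errors, and the p-values beside them, were computed by the authors for FEZ1-null against wildtype, per the file headers, and are printed only where their table is named. The headers name no day. These values are set beside the day 10 comparison and are not independent data. A table of normalized counts was not used. Samples were grouped by the labels' genotype and day.

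Of 28207 genes, 17757 passed edgeR's filterByExpr. The 12 libraries (15.7 M to 22.7 M counts) were fitted together by edgeR's robust quasi-likelihood method, TMM-normalized, with 1 mean per group and Benjamini-Hochberg adjustment over all genes tested, two-sided, called below 0.05. The SE is |log2 fold change| over the root of F. An interval of a fitted value is 1.96 SE on each side. CPM uses TMM-scaled totals, and log2 CPM has a prior count of 2. Ratios of HOPX counts have exact 95% intervals, which cover counting error only. The fit was tested on simulated counts. Versions were DESeq2 1.42.0, limma 3.58.1, edgeR 4.0.16 and R 4.3.3. Alternatives were DESeq2, its size factors, no filter, each library left out, subsets by label code, and blocks.

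The members and the gene lists were chosen with earlier results of these data known, and lists are described by counts and medians with no test. Named are all members, FEZ1, from each list up to 3 called members with the largest change between days at a mean of at least 5 CPM, or up to 2 with the smallest p between genotypes, and the 5 genes nearest to HOPX. SOX2 was added to check the tissue, after its values were seen. Starts and upstream sequences are from RefSeq (GRCh38.p14), exon lengths from GENCODE 29 (GRCh38); no coordinate was moved between builds.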

Additional observations from a re-analysis of the deposited data

Results flagged for a closer look

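HOPX at day 10 was flagged in both genotypes because a single library stood apart from the other 3, which had no count. Wildtype replicate 2 had 0.0521 CPM, which is 1 count, and FEZ1-KO replicate 1 had 0.116 CPM, which is 2 counts. Both carry label code B16 and both lie below the level that a count of 0 allows in the same library (0.156 and 0.175 CPM). Of 20 groups of 4 libraries examined, 2 were flagged. With no count in the other 3 libraries, any count in the remaining library gives the flag. The usual rate of about 1 flag in 20 therefore does not apply to these groups.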

How the results depend on the processing

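Of 1000 values (10 members, 5 comparisons, 20 alternatives), 920 kept their sign and their side of the threshold, 38 changed sign or came to 0 with no call either way, 37 became called with their sign kept, 3 lost the call, and 2 changed sign and became called. Of the 38, the 6 whose value over all libraries was above 1 in size all arose without B16 day 10 libraries: at day 10 LIFR (-2.03 to 0.11), ACSBG1 (-1.17 to 0.30) and TNC (-1.25 to 0.88 and 0.28), and for the interaction LIFR (2.06 to -0.08) and TNC (1.70 to -0.42). HOPX, LIFR and ITGB5 were called over days in both genotypes under every alternative run. In wildtype over days the members called went from 4 to 7 (5 higher) without both B16 wildtype day 10 libraries, where 56.6% of all genes were called, and to 9 (6 higher) without all 4 B16 day 10 libraries, where 72.7% were; the latter setting was chosen after seeing the data. The 2 values that changed sign and became called were those of TNC in wildtype over days, 1.13 and 1.15 under these settings. Between genotypes over days, DESeq2 called 1 member (higher), where it called 0.443% of the genes it tested. The B16 libraries alone called 4 (all 4 higher), where 5.15% of all genes were called. The set without the B16 day 10 libraries called 1 (higher), where 0.287% were. The main fit called 0 members and 0% of all genes. At day 10 DESeq2 called 3 (1 higher, 2 lower), where it called 2.68% of its genes. The B16 libraries alone called 6 (2 higher, 4 lower), where 11.5% of all genes were called. The main fit called 0 members there and 0.124% of all genes. At day 60 DESeq2 called 1 (higher), where it called 0.776% of its genes. The set without both B16 wildtype day 10 libraries called 1 (higher), where 0.0684% of all genes were called. The set without all B16 day 10 libraries called 2 (both higher), where 2.37% were. The main fit called 0 members there and 0.0225% of all genes. The cause was not tested.

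With each library left out in turn, members called ranged from 3 to 5 in wildtype over days (2 to 3 higher, 1 to 2 lower), from 6 to 7 in knockout (4 to 5 higher, 2 lower), and from 0 to 1 at day 10 (0 to 1 lower), and stayed at 0 for the interaction and at day 60, while 40.9% to 64.5% of all genes were called over days in wildtype and 40.5% to 65.2% in knockout. Where 1 library remained in a day 60 group, it was assumed to vary like the other groups. Over all genes, calls between genotypes went from 22 to between 12 and 37 at day 10, and from 4 to between 2 and 357 at day 60, where the 357 was without wildtype day 60 replicate 1, which also gave 193 interaction calls against 0. DESeq2 called 499, 148 and 78 genes at day 10, at day 60 and for the interaction, and the B16 libraries alone 2032, 9 and 908. Without all B16 day 10 libraries the day 60 count was 414 and the interaction count 50, and without both B16 wildtype ones 13 at day 10 and 12 at day 60. The label code block gave 43 at day 10 and 1 for the interaction; over days it called 6 members in wildtype (3 higher, 3 lower; 54.5% of all genes) and 7 in knockout (56.7%), and 0 in the other comparisons.

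Deviations of same-numbered libraries from their group means had correlations between genotypes of 0.122, -0.075, 0.297 and -0.096 at day 10. The day 60 value was 0.123, which is the same for both pairs by construction with 2 libraries per group. With so few libraries these values cannot decide whether same-numbered libraries pair. With the replicate block 6 members were called in wildtype over days (3 higher, 3 lower; 52% of all genes), 7 in knockout (54.3%), and 0 for the interaction and within each day, the added calls being TNC (-1.40, adjusted p = 0.0387) and FAM107A (1.03, 0.00957) in wildtype there. Over all genes the block gave 1 call for the interaction, 29 at day 10 and 3 at day 60. On library totals without TMM factors, 9 of 40 mean CPM values moved by over 1 SD, all at day 60. At day 10 the depth limits HOPX, with 3 counts in all.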

Other observations

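The remaining lists give the cell types that shared these libraries with the outer radial glia genes. Between days 55.4% of all genes were called in wildtype and 57.6% in knockout. Of 10 intermediate progenitor genes tested, 4 rose and 1 fell from day 10 to day 60 in wildtype, and 9 rose and 1 fell in knockout. EOMES, the defining factor of these basal progenitors, rose from 1.47 ± 0.833 to 82.1 ± 22.6 CPM in wildtype (SD, n = 4 and 2; edgeR adjusted p = 1.22e-05) and from 1.43 ± 1.17 to 63.4 ± 6.30 CPM in knockout (adjusted p = 1.71e-05). Of 9 dorsal forebrain genes, 7 rose and 2 fell in wildtype, and 6 rose and 2 fell in knockout. TBR1, a factor of deep-layer neurons that is not on the intermediate progenitor list, rose from 0.941 ± 0.386 to 289 ± 67.4 CPM in wildtype (edgeR adjusted p = 1.12e-06). Of 12 pan-neuronal genes, 6 rose in wildtype and 12 in knockout, and none fell. The differences between genotypes in the intermediate progenitor and pan-neuronal lists had 0 calls by edgeR on either day.

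Of 10 oligodendrocyte precursor genes, 3 rose and 1 fell in wildtype and 5 rose and 0 fell in knockout. OLIG2, a factor of that lineage, rose in knockout from 0.139 ± 0.109 to 8.94 ± 0.0772 CPM (edgeR adjusted p = 0.000545), and OLIG1 was higher in knockout at day 60 by a log2 fold change of 3.48 ± 0.84 without passing the test (adjusted p = 0.378). Of 10 neural crest genes, 7 fell in wildtype and 1 in knockout. SOX10, which is on both lists, went from 118 ± 136 to 2.23 ± 0.304 CPM in wildtype (adjusted p = 0.0134), its day 10 mean resting on the B16 libraries. Mesenchymal genes rose over days, 9 of 12 in wildtype and 8 of 12 in knockout, with 1 and 2 falling. Of 8 choroid plexus genes, 2 rose and 3 fell in each genotype. Of 7 surface epithelium genes tested, 1 rose and 2 fell in wildtype and 0 rose and 6 fell in knockout. Of 6 endothelial or microglial genes 5 rose in wildtype and 4 rose and 1 fell in knockout. Wildtype day 60 replicate 2 stood apart in both lists. Surface epithelium genes summed to 299 CPM in it, against 28.9 to 30.3 CPM in the other day 60 libraries. Endothelial or microglial genes summed to 119 CPM in it, against 12.4 to 31.0 CPM. The wildtype counts of these lists include that library and were not recomputed without it.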
